A study of Mus musculus with 12 samples.

Results

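Colony-stimulating factors are the secreted proteins that macrophages and granulocytes need to form and survive, and the genes described here are 3 such ligands and 5 genes that encode their receptor chains. They were chosen by gene name from the 2 tables of the series, and all 8 were among the 14264 genes listed. The ligand genes are Csf1 (CSF1, or M-CSF), Csf2 (GM-CSF) and Csf3 (G-CSF). The receptor genes are Csf1r, Csf2ra, Csf2rb, Csf2rb2 and Csf3r. The cells were mouse bone marrow-derived macrophages that carried a control short hairpin (shCTRL, labelled wild type) or a hairpin against MOF (shMOF). MOF is a lysine acetyltransferase encoded by Kat8. Each kind of cell was left unstimulated or treated with 100 ng/ml of lipopolysaccharide (LPS), a bacterial product sensed through TLR4, for 3 h, which gives 4 groups of 3 libraries. The labels mention neither a further MOF hairpin nor a rescue, give no age, strain or culture medium, and do not say that the numbered libraries came from separate animals. P-values therefore measure only the spread between these samples, and loss of MOF cannot be told apart from any other action of the hairpin.

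CSF1 acts through the receptor tyrosine kinase CSF1R and is the factor on which macrophages depend for survival and growth. GM-CSF, IL-3 and IL-5 each use an alpha chain of their own with a shared beta chain, which Csf2rb encodes, and signal through JAK2 and STAT5. Mice carry a further beta chain, encoded by Csf2rb2, that serves IL-3 only. G-CSF acts through CSF3R, best known on neutrophils. Macrophages make all 3 factors when TLR4 is engaged, and the GM-CSF and G-CSF messages are textbook cases of transcripts that AU-rich elements in the 3′ untranslated region mark for rapid decay.

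The tables hold a mean normalized count per gene and 1 knockdown comparison each, with no values per library, so effects are log2 fold changes, each with the authors' standard error (SE). A gene was called where the adjusted p was under 0.05. Rose, fell, higher and lower refer to shMOF against shCTRL within 1 state and not to a response to LPS. LPS-treated and unstimulated cells were not compared directly. Kat8 itself had a log2 fold change of -2.25 (SE 0.10) unstimulated and -2.31 (SE 0.13) with LPS by the authors' deposited table. Mean normalized counts ran from 4.33 to 855736 over all genes around a median of 446.3. The depth of single libraries is unknown. The macrophage label was checked against 10 marker genes, Adgre1, Cd68, Itgam, Mertk, Fcgr1, Lyz2, Cd14, C1qa, C1qb and C1qc. All 10 were listed, with mean normalized counts between 1233 and 259735. Of 12 neutrophil markers 4 were listed (S100a8, Camp, Mmp8 and Lcn2). Of 7 lymphoid markers 0 were listed, and of 7 dendritic cell markers 1, Zbtb46. It was called higher in knockdown cells at LPS 3 h and was not called unstimulated. Of 7 stromal markers 6 were listed, at mean normalized counts of 13.7 to 667.4, and 3 rose unstimulated and 4 with LPS. Of 6 progenitor and mast cell markers 3 were listed, and 2 fell unstimulated and 1 with LPS. Among all genes tested, 21.3% rose and 17.8% fell unstimulated, and 28.1% rose and 20.0% fell with LPS. Markers that were not listed were not analysed here.

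Sequences are shown for the AU-rich letters in which the ligand messages differ among themselves, and for the likeness of the beta chain genes, which bears on how they were counted. The first set is the AU-rich part of the 3 ligand messages. In GENCODE M21 the 3′ untranslated region of Csf2 is 317 bases long and holds 9 copies of the pentamer ATTTA, or 28.4 per kb, with 4 copies of the longer TTATTTATT. That of Csf3, 669 bases long, holds 6 pentamers, or 8.97 per kb, and that of Csf1, 2111 bases long, holds 4, or 1.89 per kb. Over 21022 genes, each taken with its longest 3′ untranslated region and searched on the sense strand, 65.2% held the pentamer and 7.66% the longer form. The median density was 1.24 pentamers per kb. Density in Csf2 was above that of 99.9% of these regions and density in Csf3 above that of 98.4%, against 62.4% for Csf1. Csf1r had 3 pentamers in 1669 bases, or 1.80 per kb, above 60.8% of these regions and so close to Csf1, while Csf2ra, Csf2rb, Csf2rb2 and Csf3r had 0. The contrast was smaller by number of pentamers, where Csf2 exceeded 91.4% of these regions, Csf3 83.1% and Csf1 72.0%. The median region was 960 bases long. The windows of 30 bases with most pentamers are printed from the transcript sequences, with T for U and pentamers in capitals.
Csf2, bases 230 to 259 after the stop codon: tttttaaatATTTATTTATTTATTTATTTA
Csf3, bases 24 to 53 after the stop codon: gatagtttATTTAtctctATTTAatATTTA
Csf1, bases 2021 to 2050 after the stop codon: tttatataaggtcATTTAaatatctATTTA
The capitals of the Csf2 window are 5 overlapping pentamers in 1 run, whereas the Csf3 and Csf1 copies stand apart from each other. A match is a description of the letters and not a measured site of decay.

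The second set concerns Csf2rb and Csf2rb2, whose counts could be confused. They lie 20.03 kb apart on opposite strands of chromosome 15 of GRCm38, Csf2rb2 from 78282507 to 78305721 on the minus strand and Csf2rb from 78325752 to 78353847 on the plus strand. Their coding sequences shared 95.2% of 2628 aligned bases, with 125 differences. Of the windows of 100 bases, the length of a read here, in the Csf2rb transcript, 6.96% were found without change in a transcript of Csf2rb2, and 7.20% the other way. At 50 bases the shares were 18.4% and 19.0%. These are shares of single windows and not of read pairs. The libraries were paired-end, so a mate outside a shared stretch could still place a read. The stretch of 90 coding bases in which they differed most, with 16 differences in capitals, shows what separates reads of either gene. The longest run they shared, of 242 bases, shows where a single read cannot be told apart.
Csf2rb, coding bases 308 to 397: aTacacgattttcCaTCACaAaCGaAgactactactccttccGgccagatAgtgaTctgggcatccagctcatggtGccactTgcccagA
Csf2rb2, coding bases 311 to 400: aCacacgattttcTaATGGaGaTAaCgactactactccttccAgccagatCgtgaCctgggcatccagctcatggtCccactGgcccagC
Shared by both, coding bases 2083 to 2324 of Csf2rb: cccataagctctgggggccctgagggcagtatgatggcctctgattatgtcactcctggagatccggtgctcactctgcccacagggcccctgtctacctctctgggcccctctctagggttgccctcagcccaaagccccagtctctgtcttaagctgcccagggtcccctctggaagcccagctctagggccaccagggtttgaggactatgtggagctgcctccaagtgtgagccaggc
How the authors' counting assigned reads from shared stretches is not given in the sources used here, so values of both genes carry that uncertainty.

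By the mean normalized count per kb, which is not split by LPS state, all 5 receptor messages stood above the 3 ligand messages. The order within either state is unknown. Divided by the summed length of annotated exons, the mean normalized count per kb was 8674 for Csf1r, which put it first of the 8. Csf2rb2 followed at 2236 per kb, Csf2rb at 1617, Csf2ra at 1262 and Csf3r at 902. The ligands closed the order with Csf1 at 648 per kb, Csf2 at 339.6 and Csf3 at 22.9. With the length of the longest transcript instead, Csf2rb (2401 per kb) came before Csf2rb2 (2236 per kb), so these neighbours have no firm order. As the mean pools libraries and has no error, no other pair in the order was tested. Before division by length, the mean normalized count of Csf1r, 50086, exceeded that of 99.7% of listed genes, whereas that of Csf3, 32.4, exceeded 20.5%. On that scale the ligand Csf1 (3424) stood above the receptor Csf3r (3255).

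**Figure D1:**
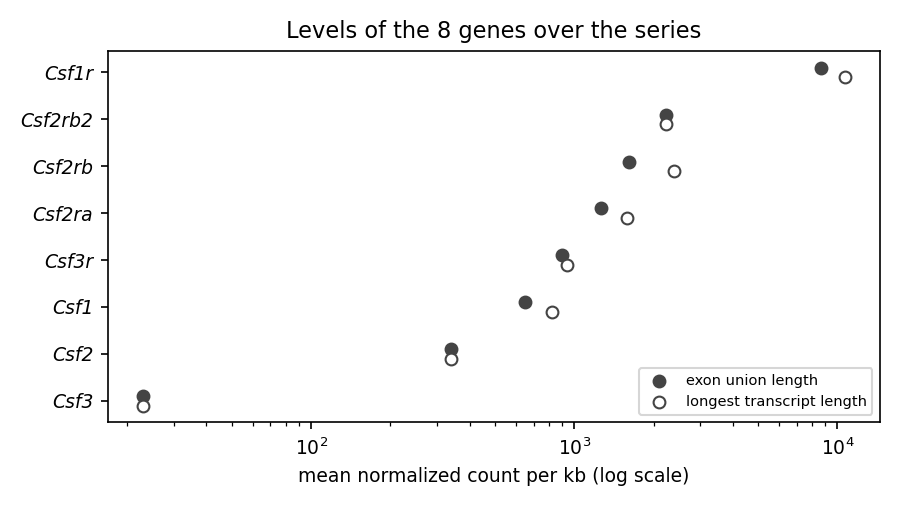
Mean normalized count per kb (log scale) of each of the 8 genes, with the exon union length (filled) or the longest transcript (open) as divisor. Csf1r leads at 8674 per kb and Csf3 is last at 22.9 per kb, and only Csf2rb and Csf2rb2 change places between the divisors.

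All 3 ligand genes changed with the knockdown at LPS 3 h, where Csf1 and Csf2 rose by similar amounts while Csf3 fell. The 3 calls, 2 higher and 1 lower, stand where 48.0% of all genes tested were called, 28.1% higher and 20.0% lower. In unstimulated cells 0 of 3 were called, and 39.1% of all genes were. By the authors' Wald test 0 of 3 had an unadjusted p under 0.05 there, but for Csf2 and Csf3, with an SE of 1.67, this says nothing, and Csf1 is the only ligand gene whose unstimulated effect was well measured.

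Csf1 (ENSMUSG00000014599.10) lies on chromosome 3 from 107741048 to 107760469, minus strand, and had a mean normalized count of 3424. Its log2 fold change in unstimulated cells was -0.01 (SE 0.08, adjusted p = 0.914, the authors' deposited table), with a 95% interval from -0.17 to 0.14. At LPS 3 h it rose by 0.78 (SE 0.05, adjusted p = 1.76e-44) per the authors' deposited table, or 1.72-fold with an interval from 1.60-fold to 1.85-fold. The knockdown effect differed between states by 0.80 (SE 0.10, adjusted p = 3.73e-15, normal test of the difference over 12994 genes). Stromal cells also make CSF1, and of the 6 stromal markers listed 3 rose unstimulated, where Csf1 was not called, and 4 with LPS. Their median log2 fold change was 0.42 and 0.59, and their part in the Csf1 result was not tested. Among all genes tested, 21.3% rose unstimulated and 28.1% with LPS.

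Since the effect on Csf1 was well measured in both states, its promoter is printed, from RefSeq on GRCm38.p6, minus strand of chr3:107760420-107760719, which runs from 250 bases before to 50 after the start. Capitals mark the only match among the motifs searched.
Csf1 promoter: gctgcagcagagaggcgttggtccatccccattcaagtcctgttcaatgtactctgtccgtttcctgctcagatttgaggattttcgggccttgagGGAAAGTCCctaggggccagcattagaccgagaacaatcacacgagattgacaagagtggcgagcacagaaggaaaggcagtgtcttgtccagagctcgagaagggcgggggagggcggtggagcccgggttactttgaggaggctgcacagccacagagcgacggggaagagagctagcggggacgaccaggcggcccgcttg
The match is to GGANNTTCC, a core of the NF-kB motif, and begins at base -154 on the reverse strand. It occurred on either strand in 4.26% of 32851 promoter windows. TATAAA, held by 13.6% of windows, TGANTCA of AP-1, held by 7.81%, GAGGAA of PU.1, held by 28.3%, and TTNNGNAA of C/EBP, held by 40.7%, had no match in this window. RefSeq windows were found for 5 of the 8 genes (Csf1, Csf2, Csf2ra, Csf2rb2 and Csf3r). That of Csf3r also held GGANNTTCC, at base -129 from the RefSeq start. The start of Csf3r in GENCODE M21, at 126024550, lies inside that window and before its RefSeq start. The Csf2 window ends 183 bases before the start in GENCODE M21 and held a C/EBP match only.

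Csf2 (ENSMUSG00000018916.5) lies on chromosome 11 from 54247271 to 54249667, minus strand, with a mean normalized count of 271.7. At LPS 3 h it rose by 0.80 (SE 0.18, adjusted p = 3.09e-05) as listed in the authors' deposited table, or 1.74-fold with an interval from 1.36-fold to 2.21-fold. Its unstimulated log2 fold change was 0.12 (SE 1.67, adjusted p = 0.968) by the authors' deposited table, which spans 0.112-fold to 10.6-fold at 95%. That SE was above the unstimulated SE of 99.7% of genes. The antisense gene Gm12223 covers 2068 bases of Csf2 on the other strand, and whether counting used strand is not given in the sources used here.

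Csf3 (ENSMUSG00000038067.2) lies on chromosome 11 from 98701263 to 98703629, plus strand, and was the least abundant of the 8. At LPS 3 h it fell, at -1.64 on the log2 scale (SE 0.44, adjusted p = 6.52e-04, the authors' deposited table), or 0.321-fold of the control level. The 95% interval, from -2.50 to -0.78, does not meet that of Csf2, from 0.45 to 1.14, so these ligand messages moved in opposite directions in the same comparison of groups. In unstimulated cells Csf3 stood at 0.12 (SE 1.67, adjusted p = 0.968) per the authors' deposited table.

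The unstimulated values of Csf2 and Csf3 are not specific to these genes. Among genes of the authors' deposited table with an unstimulated SE above 1, 33 others had the same log2 fold change to within 0.0005, Ccl17 and Camp among them. The table gives no counts that would show how many reads lay behind them. No direction or absence of change can be read for either ligand in unstimulated cells, and the difference between states, 0.68 for Csf2 (SE 1.68, adjusted p = 0.806) and -1.76 for Csf3 (SE 1.73, adjusted p = 0.479, normal test of the difference), is equally wide.

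**Figure D2:**
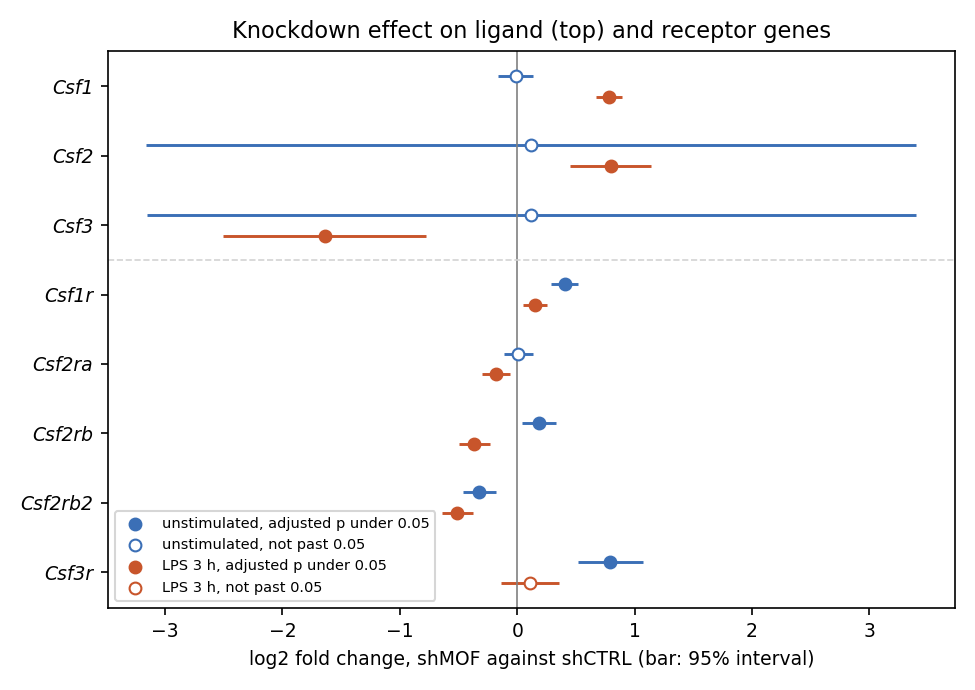
Log2 fold change, shMOF against shCTRL, of ligand genes (above the dashed line) and receptor genes in unstimulated cells (blue) and at LPS 3 h (orange), with 95% intervals from the authors' SE and open circles where the adjusted p was not under 0.05. Csf1 moves from -0.01 to 0.78 and Csf3r from 0.79 to 0.11, while the unstimulated bars of Csf2 and Csf3 span more than the rest of the plot.

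Receptor genes changed in both states, mostly upward without LPS and mostly downward with it, but only Csf2rb was called in both directions. In unstimulated cells 3 of 5 rose (Csf1r, Csf2rb and Csf3r) and 1 fell (Csf2rb2), where 21.3% of all genes rose and 17.8% fell. After LPS 1 rose (Csf1r) and 3 fell (Csf2ra, Csf2rb and Csf2rb2), where 28.1% of all genes rose and 20.0% fell. The median log2 fold change of the 5 was 0.18 unstimulated and -0.18 at LPS 3 h, against 0.03 in both states over all genes. The difference between states passed for 4 of the 8 genes, where 30.6% of all genes passed. It was negative for all 5 receptor genes and passed for 3 of them, Csf1r, Csf2rb and Csf3r. Of 12994 genes tested, 12.4% passed in that direction and 18.2% in the other. A negative difference was not particular to receptor genes. Of the 10 macrophage markers, 4 passed with a negative difference and 0 with a positive one, and their median difference was -0.11.

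Csf1r (ENSMUSG00000024621.15), the receptor kinase for CSF1, lies on chromosome 18 from 61100598 to 61132149, plus strand. In unstimulated cells it rose by 0.40 (SE 0.06, adjusted p = 1.09e-10) as listed in the authors' deposited table, or 1.32-fold. With LPS for 3 h it rose by 0.15 (SE 0.05, adjusted p = 0.0110) by the authors' deposited table, or 1.11-fold. The effect at LPS 3 h was smaller by a difference of -0.25 (SE 0.08, adjusted p = 0.00747, normal test of the difference). Of the macrophage markers, 10 of 10 rose unstimulated, with a median log2 fold change of 0.47. At LPS 3 h 8 of 10 rose, with a median of 0.30, while Adgre1 and Fcgr1 were not called. The shares of all genes that rose were 21.3% and 28.1%. The part of these markers in the Csf1r result was not tested. In bulk RNA, more cells of a type and more RNA per cell cannot be told apart. The last 873 bases of Csf1r overlap Hmgxb3 on the other strand, which had -0.18 (SE 0.07) unstimulated and 0.10 (SE 0.06) with LPS (the authors' deposited table).

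Csf3r (ENSMUSG00000028859.14), which encodes the G-CSF receptor, lies on chromosome 4 from 126024550 to 126044440, plus strand, with a mean normalized count of 3255. Csf2 and Csf3 aside, which cannot be read there, it rose most of the 8 in unstimulated cells. The rise was 0.79 (SE 0.14, adjusted p = 1.61e-07) per the authors' deposited table, or 1.73-fold with an interval from 1.43-fold to 2.10-fold. After LPS it had 0.11 (SE 0.13, adjusted p = 0.504) as listed in the authors' deposited table, and the difference of -0.68 passed (SE 0.19, adjusted p = 0.00187, normal test of the difference). Of the 4 neutrophil markers listed, 0 were called in unstimulated cells by the authors' Wald test, and 1, Mmp8, had an unadjusted p under 0.05. The share of all genes called there was 39.1%. Camp had the unstimulated value shared with Csf2 and Csf3, 0.12 (SE 1.70), so the count says nothing about that marker. Lcn2, the most abundant of the 4, stood at 0.69 (SE 0.94) unstimulated by the authors' deposited table. At LPS 3 h it was lower in knockdown than in control cells, at -1.07 (SE 0.10, adjusted p = 7.09e-25, the authors' Wald test). The unstimulated values of Mmp8 and S100a8 were 0.29 (SE 0.14, adjusted p = 0.0743) and -0.42 (SE 0.41, adjusted p = 0.455) per the authors' deposited table. Mean normalized counts of the 4 ran from 6.69 (Camp) to 2074 (Lcn2), and the part of such cells in the Csf3r result was not tested.

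The 2 beta chain genes took opposite directions in unstimulated cells and the same direction after LPS. Csf2rb (ENSMUSG00000071713.4), the shared chain, had a mean normalized count of 11765 and rose by 0.18 (SE 0.07, adjusted p = 0.0303) unstimulated (the authors' deposited table). With LPS for 3 h it fell, at -0.36 (SE 0.07, adjusted p = 1.65e-07) per the authors' deposited table, or 0.777-fold. The difference was -0.55 (SE 0.10, adjusted p = 3.45e-07, normal test of the difference). The small unstimulated rise of Csf2rb was lost once fold changes were centred on their median (adjusted p = 0.0797, where the alternatives reached up to 1).

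Csf2rb2 (ENSMUSG00000071714.5), the chain for IL-3, had a mean normalized count of 10596 and fell in both states. Its log2 fold change was -0.32 (SE 0.07, adjusted p = 5.09e-05) unstimulated and -0.51 (SE 0.07, adjusted p = 9.52e-14) with LPS as listed in the authors' deposited table, the latter being 0.703-fold of control. The difference between states, -0.19 (SE 0.10), did not pass (adjusted p = 0.138, normal test of the difference), with a 95% interval from -0.38 to 0.00470. The unstimulated 95% intervals of Csf2rb, 0.04 to 0.33, and Csf2rb2, -0.46 to -0.18, do not meet, although the 2 messages share stretches of sequence as printed above.

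Csf2ra (ENSMUSG00000059326.6), the alpha chain that binds GM-CSF, lies near the end of chromosome 19, from 61223957 to 61228429, minus strand. It had 0.01 (SE 0.06, adjusted p = 0.931) unstimulated by the authors' deposited table. After LPS it fell, at -0.18 (SE 0.06, adjusted p = 0.00581, the authors' deposited table), or 0.882-fold. The difference of -0.19 (SE 0.09) missed the threshold (adjusted p = 0.0822, normal test of the difference), with an interval from -0.36 to -0.02. With LPS for 3 h the GM-CSF message was higher in knockdown cells while those of both chains of its receptor were lower.

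**Figure D3:**
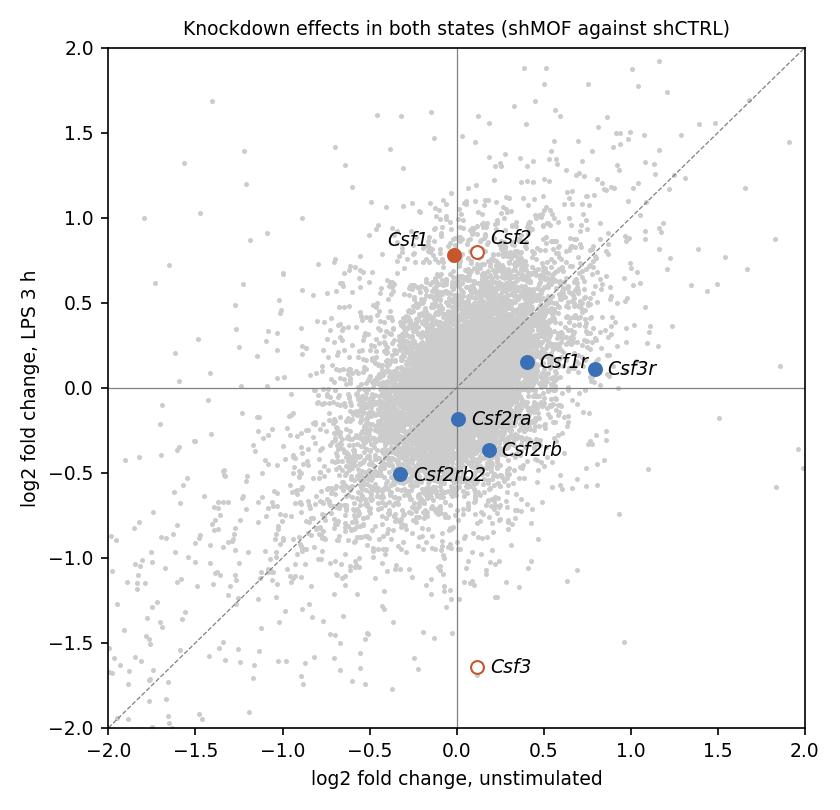
Log2 fold change in unstimulated cells (x axis) against that at LPS 3 h (y axis) for the 8 genes (orange, ligands; blue, receptors) over 10724 genes whose mean normalized count reached 50 (grey; 85 genes lie beyond the axes). All 5 receptor genes lie below the dashed line of equal effect and Csf1 lies above it; open circles mark Csf2 and Csf3, whose unstimulated SE is 1.67.

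**Figure D4:**
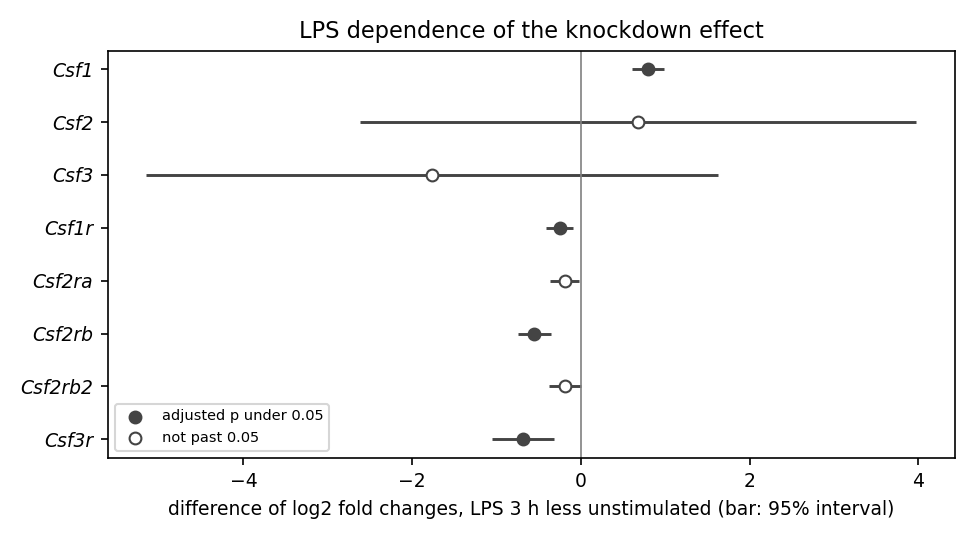
Difference of the log2 fold changes, LPS 3 h less unstimulated, with 95% intervals for the 8 genes; filled circles passed an adjusted p of 0.05. Csf1 stands at 0.80, the 5 receptor genes stand between -0.68 and -0.19, and the bars of Csf2 and Csf3 cross 0 widely.

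The nearest listed protein-coding genes on either side were set beside the 8, Hmgxb3 next to Csf1r being given above. Csf3 lies between Psmd3, a proteasome subunit gene 5.283 kb away, and Med24, a Mediator subunit gene 0.961 kb away. Both neighbours fell at LPS 3 h as Csf3 did, Psmd3 at -0.19 (SE 0.04) and Med24 at -0.35 (SE 0.07) per the authors' deposited table, against -1.64 for Csf3. Over all genes tested, 20.0% fell with LPS. Unstimulated, Psmd3 rose by 0.14 (SE 0.04) and Med24 had 0.07 (SE 0.07), by the authors' deposited table. Ncf4, a subunit gene of the phagocyte oxidase 19.926 kb from Csf2rb2, had -0.04 (SE 0.04) unstimulated and fell with LPS, as both beta chain genes did, at -0.27 (SE 0.04) in the authors' deposited table. Pdgfrb lies 15.536 kb before Csf1r and encodes a receptor kinase of the same family. In knockdown cells at LPS 3 h it was higher than in control cells by 0.96 (SE 0.14, the authors' deposited table). The nearest listed neighbours of Csf2, P4ha2 and Fnip1, had values between -0.17 and -0.10 in both states (the authors' deposited table), none of them called. Over all genes 39.1% were called unstimulated and 48.0% with LPS. Ahcyl1, next to Csf1, rose by 0.09 (SE 0.03) and 0.18 (SE 0.03). Zc3h12a, 896.709 kb from Csf3r, rose by 0.18 (SE 0.06) and 0.54 (SE 0.04). Zfp950, the only one found for Csf2ra, had 0.20 (SE 0.12) and fell with LPS, at -0.33 (SE 0.12). Gstm5 next to Csf1, Mrps15 next to Csf3r and Tst next to Csf2rb were called in neither state.

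For the gene groups around the 8 genes, counts called are read against the shares over all genes, 21.3% higher and 17.8% lower unstimulated and 28.1% higher and 20.0% lower with LPS. Of 15 other ligands and receptors of blood cell growth 9 were listed, of which 2 rose and 2 fell unstimulated and 3 rose and 1 fell at LPS 3 h. The total called, 4 of 9 in each state, is near the shares over all genes, 39.1% and 48.0%. Il3ra, the alpha chain for IL-3, rose in both states, by 0.51 (SE 0.10) and 0.39 (SE 0.10) per the authors' deposited table, opposite to the IL-3 chain gene Csf2rb2. Il34, the other ligand of CSF1R, was low (mean normalized count 25.2) and had 0.11 (SE 0.67) and 0.23 (SE 0.22) as listed in the authors' deposited table, neither called. Kitl, the ligand of KIT, fell unstimulated, at -0.70 (SE 0.10), and had -0.01 (SE 0.10) with LPS by the authors' deposited table. Epor, the erythropoietin receptor gene, rose by 2.17 (SE 0.31) and 1.23 (SE 0.50, the authors' deposited table), at a mean normalized count of 20.4.

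Of 22 genes that carry the CSF1R signal, all listed, 13 rose and 5 fell unstimulated, with a median log2 fold change of 0.15, and 11 rose and 4 fell at LPS 3 h, with a median of 0.13. Over all genes 21.3% rose unstimulated and 28.1% with LPS. Tyrobp, an adaptor of macrophage receptors, rose by 0.35 (SE 0.04) and 0.38 (SE 0.04) per the authors' deposited table. Ptpn6, a phosphatase that limits receptor signals, rose by 0.58 (SE 0.05) unstimulated and by 0.13 (SE 0.05) with LPS as listed in the authors' deposited table. Inpp5d, the lipid phosphatase SHIP1, rose by 0.21 (SE 0.05) unstimulated and fell at LPS 3 h, at -0.32 (SE 0.05), by the authors' deposited table. The kinase gene Src went the other way, at -0.37 (SE 0.09) and 0.59 (SE 0.06, the authors' deposited table).

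Among 17 genes of JAK-STAT signalling downstream of the GM-CSF and G-CSF receptors, 7 rose and 2 fell unstimulated, and 13 rose and 0 fell at LPS 3 h. Over all genes 21.3% rose and 17.8% fell unstimulated, and 28.1% rose and 20.0% fell with LPS. Their median log2 fold change was 0.12 unstimulated and 0.43 at LPS 3 h. By an unadjusted p under 0.05, too, 0 of 17 were lower at LPS 3 h. Stat5a had -0.14 (SE 0.06, adjusted p = 0.0542) unstimulated and rose by 0.78 (SE 0.04, adjusted p = 1.99e-85) with LPS per the authors' deposited table. Jak2, whose kinase serves the GM-CSF receptor, had 0.05 (SE 0.06) unstimulated and rose by 0.65 (SE 0.04) with LPS in the authors' deposited table. Pim1, a kinase gene that STAT5 induces, fell unstimulated, at -0.25 (SE 0.06), and rose by 0.61 (SE 0.05) with LPS by the authors' deposited table. Socs3, the feedback inhibitor of the G-CSF receptor, rose in both states, by 0.80 (SE 0.17) and 0.76 (SE 0.13, the authors' deposited table).

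Regulators of the messages and of the receptors were mixed. Of 13 genes of message decay and stability (the AU-rich list), 3 rose and 2 fell unstimulated and 5 rose and 2 fell at LPS 3 h. The totals are near the 39.1% and 48.0% of all genes called. Zfp36, which encodes tristetraprolin and promotes decay of Csf2 and Csf3 messages, rose by 0.21 (SE 0.06) and 0.46 (SE 0.05) per the authors' deposited table. Its relative Zfp36l2 had 0.00052 (SE 0.08) and fell at LPS 3 h, at -0.91 (SE 0.09), as listed in the authors' deposited table, and Zc3h12a, a ribonuclease gene, rose by 0.18 (SE 0.06) and 0.54 (SE 0.04). Adam17, the protease that sheds CSF1R, fell in both states, at -0.65 (SE 0.04) and -0.36 (SE 0.04) by the authors' deposited table, while Rhbdf2, needed for its maturation, rose by 0.44 (SE 0.08) and 0.80 (SE 0.07). Of the 5 shedding genes 1 rose and 2 fell unstimulated and 2 rose and 1 fell at LPS 3 h. Of 12 transcription factors that act on Csf1r, 6 rose and 2 fell unstimulated and 7 rose and 2 fell at LPS 3 h, where 21.3% and 28.1% of all genes rose and 17.8% and 20.0% fell. Irf8 rose by 0.50 (SE 0.06) and 0.37 (SE 0.06) and Spi1, which encodes PU.1, by 0.19 (SE 0.06) and 0.41 (SE 0.05, the authors' deposited table). Fos had -0.03 (SE 0.08) and fell at LPS 3 h, at -0.62 (SE 0.07), per the authors' deposited table.

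Genes that CSF1 and GM-CSF are known to induce did not share 1 direction. Of 12 genes of the growth response to CSF1, 2 rose and 2 fell unstimulated and 8 rose and 2 fell at LPS 3 h, with medians of 0.06 and 0.38. Over all genes 39.1% and 48.0% were called, so that the unstimulated count is near that share. Ccnd1, cyclin D1, fell in both states, at -0.77 (SE 0.10) and -1.37 (SE 0.09) as listed in the authors' deposited table, and Ccnd2 had 0.05 (SE 0.16) and rose by 1.08 (SE 0.14) at LPS 3 h. Of 10 genes of the GM-CSF macrophage phenotype, 4 rose and 0 fell unstimulated, a total near the 39.1% of all genes called, and 4 rose and 4 fell at LPS 3 h, against 48.0%. By an unadjusted p under 0.05, too, 0 of 10 were lower unstimulated. The unstimulated value of Ccl17, 0.12 (SE 1.69), is the one shared with Csf2 and Csf3, so no direction can be read for it. Fabp4 rose by 1.32 (SE 0.09) and Pparg by 0.49 (SE 0.07) with LPS by the authors' deposited table, while the chemokine gene Ccl17 fell, at -1.51 (SE 0.31). Over all genes the median log2 fold change was 0.03 in both states.

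**Figure D5:**
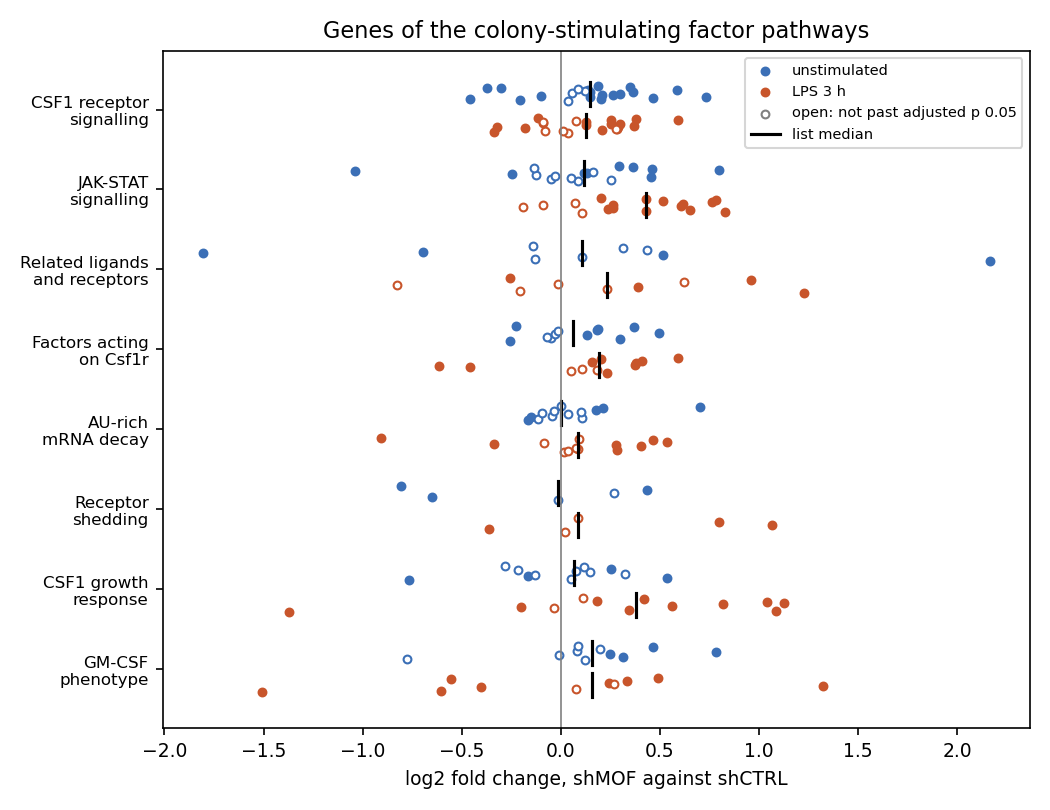
Log2 fold change, shMOF against shCTRL, of each listed gene of 8 groups around the colony-stimulating factors, unstimulated (blue) and at LPS 3 h (orange), with open circles where the adjusted p was not under 0.05 and a black bar at the list median. The JAK-STAT median moves from 0.12 to 0.43 and that of the CSF1 growth response from 0.06 to 0.38, while the CSF1 receptor signalling median stays near 0.15 and 0.13.

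Genes whose pair of fold changes lay nearest to a member were sought above a mean normalized count of 50, as a description over the 2 comparisons only. Nearest to Csf1 were Fam60a, March5 and Socs7, at most 0.01 apart on the log2 scale. Nearest to Csf3r were Slc35c1, Ms4a4a and Pfkfb4, at most 0.05 apart, and nearest to Csf1r were H2afj, Trim14 and Naglu, at most 0.02 apart. Csf2 and Csf3 are left out here, since their unstimulated values cannot be read.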

How the data were processed

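RNA of 12 libraries (4 groups of 3) was sequenced with stranded, paired-end libraries of 100 bp reads, per the labels' protocol. The submitters' processing notes name DESeq2 and the mm10 build. The sources used here name no aligner, counter or annotation. Per the file headers, each table the authors deposited has a mean normalized count (a signal over libraries not named, identical in both tables), a log2 fold change, its SE and the Wald statistic (scores), and p-values with adjusted p-values. There are 277 genes with no adjusted p in the LPS table. They were used as deposited. The difference between states was tested by subtracting the log2 fold changes and adding their variances. P-values were two-sided from the normal distribution, adjusted by Benjamini-Hochberg over the 12994 genes whose mean reached 10, and the code was tested on simulated data. It takes the errors as uncorrelated. Intervals are at 95%. Annotation was GENCODE M21 (GRCm38, which is mm10), matched by gene ID for 14214 genes, and promoters were from RefSeq (GRCm38.p6). Scripts ran in Python 3.11.15 with pandas 2.3.3, scipy 1.17.1 and Biopython 1.88. The members and lists were chosen with earlier results of these data known. Named are all members, Kat8, up to 4 genes of smallest p per list (any gene of the AU-rich and related receptor lists), the nearest neighbours and the 3 nearest patterns. Alternatives were other thresholds, nulls, centring and adjustment sets, and another gene length.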

Additional observations from a re-analysis of the deposited data

Results flagged for a closer look

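The knockdown effect differed between LPS 3 h and unstimulated cells for 4 of the 8 genes, by the normal test of the difference adjusted over 12994 genes whose mean normalized count reached 10. Of these, 30.6% passed that test. The differences were 0.80 for Csf1 (log2, LPS 3 h less unstimulated), -0.25 for Csf1r, -0.55 for Csf2rb and -0.68 for Csf3r. The tables hold no values per library, so how many samples show each direction is unknown.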

How the results depend on the processing

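Of the 8 genes, 4 were called unstimulated, 7 at LPS 3 h and 4 for the difference (all genes: 39.1%, 48.0% and 30.6%). With a null of a log2 change of at most 0.25 the first counts were 1 (Csf3r) and 4 (Csf1, Csf2, Csf3 and Csf2rb2), and with a minimum log2 change of 1 they were 0 and 1 (Csf3). An empirical null, which centres and rescales the Wald statistic by its median and spread over genes, left 0, 1 and 1 calls, both being Csf1. With the SE of both states summed, the largest error that any correlation between them allows, 2 differences were called (Csf1 and Csf2rb). A threshold of 0.01, centring and the other adjustment sets kept each count within 1.5 times, and no called gene changed direction. Unstimulated effects that were not called crossed 0 for Csf2ra when centred (-0.02) and for Csf2, Csf3 (-0.33 each) and Csf2ra (-0.0076) under the empirical null. A mean of at least 50 leaves out Csf3. No paired analysis was possible because the tables hold no values per library. For the same reason, leaving out replicates, edgeR and other size factors were not run. The SE of 1.67 limits Csf2 and Csf3 in unstimulated cells.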
